A study of Mus musculus with 2 samples.

Results

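In neural progenitor cells grown from adult mice, 1913 H3K4me3 peaks lay at the ends of 2 or more protein-coding genes at once. They were chosen by position and length, with no use of tags or fold enrichment, from the peak list of 1 chromatin immunoprecipitation library. A peak was taken when it lay on chromosomes 1 to 19, was shorter than 5000 bp and overlapped the window of 1 kb either side of an end of at least 2 coding genes. The whole list held 19265 peaks, and 10591 peaks of this length on these chromosomes lay at an end of any coding gene. The shared peaks were 18.1% of these (exact 95% interval 17.3 to 18.8), and the remaining 8678 peaks lay at ends of 1 coding gene only. Of the shared peaks, 1824 lay at exactly 2 genes, 83 at 3 genes, 4 at 4 genes, 1 at 5 genes and 1 at 25 genes.

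Trimethylation of lysine 4 of histone H3 (H3K4me3) is a mark of nucleosomes around the start of active and poised genes, and in mammals it is found above all at starts rich in CpG dinucleotides. Many mammalian genes lie close to a neighbour, and when their starts face each other a shared stretch of DNA serves as the promoter for transcription in both directions. Such paired starts are known to be frequent among genes for DNA repair, mitochondria and protein folding.

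The study set 1 H3K4me3 library, marked "con" in the labels, against 1 input library made without the antibody step. The neural progenitors were cultured in N2 medium to which EGF and bFGF, both growth factors, had been added, and the header of the peak list names the H3K4me3 library after EGF. Filtered tags numbered 18156769 for H3K4me3 and 17831241 for the input. With 1 library of each kind there is no replicate check, no test was run, and the intervals below cover counting error only. A peak within reach of both genes shows where the mark lies, not which of the genes is transcribed.

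The windows below show what the DNA between such genes looks like. They are RefSeq promoter windows of GRCm38.p6 (mm10), from 250 bases before to 50 bases after an annotated start, and 1 window is given for each pair. The first 4 pairs face each other without overlapping, and their capitals mark all the bases that lie between the genes. The last 2 pairs overlap at their starts, and their capitals mark the bases that belong to both genes and fall inside the window. These last 2 were chosen after their values were seen, to set a strongly marked pair beside a weakly marked one.
Phf7 and Bap1, window of Phf7, chr14:31251266-31251565, minus strand: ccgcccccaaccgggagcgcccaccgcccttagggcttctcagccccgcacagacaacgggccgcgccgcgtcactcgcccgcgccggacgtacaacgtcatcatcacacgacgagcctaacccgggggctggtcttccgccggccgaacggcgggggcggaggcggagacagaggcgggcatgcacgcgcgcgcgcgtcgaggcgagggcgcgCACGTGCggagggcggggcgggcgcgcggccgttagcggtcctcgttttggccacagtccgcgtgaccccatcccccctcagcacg
Atm and Npat, window of Atm, chr9:53536622-53536921, minus strand: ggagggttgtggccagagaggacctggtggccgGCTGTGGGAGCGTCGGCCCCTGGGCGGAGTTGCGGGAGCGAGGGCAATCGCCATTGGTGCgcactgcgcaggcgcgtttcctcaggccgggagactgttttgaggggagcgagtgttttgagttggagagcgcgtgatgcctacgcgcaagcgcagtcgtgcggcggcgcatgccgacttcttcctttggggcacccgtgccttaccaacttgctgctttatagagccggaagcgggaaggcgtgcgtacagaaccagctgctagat
Sirt3 and Psmd13, window of Sirt3, chr7:140882260-140882559, minus strand: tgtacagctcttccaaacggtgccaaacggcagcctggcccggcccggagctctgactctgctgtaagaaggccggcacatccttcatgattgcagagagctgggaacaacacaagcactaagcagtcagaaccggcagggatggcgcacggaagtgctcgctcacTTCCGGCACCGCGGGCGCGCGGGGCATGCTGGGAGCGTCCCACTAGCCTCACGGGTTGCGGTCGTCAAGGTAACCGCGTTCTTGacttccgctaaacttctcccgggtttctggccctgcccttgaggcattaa
Mrps12 and Sars2, window of Mrps12, chr7:28741772-28742071, minus strand: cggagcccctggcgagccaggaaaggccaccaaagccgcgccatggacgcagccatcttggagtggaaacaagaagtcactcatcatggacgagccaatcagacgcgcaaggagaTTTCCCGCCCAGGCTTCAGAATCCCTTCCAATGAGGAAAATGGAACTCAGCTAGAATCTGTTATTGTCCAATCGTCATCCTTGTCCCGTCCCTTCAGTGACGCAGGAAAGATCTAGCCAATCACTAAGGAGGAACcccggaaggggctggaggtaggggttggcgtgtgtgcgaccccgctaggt
Hspd1 and Hspe1, window of Hspd1, chr1:55088194-55088493, minus strand: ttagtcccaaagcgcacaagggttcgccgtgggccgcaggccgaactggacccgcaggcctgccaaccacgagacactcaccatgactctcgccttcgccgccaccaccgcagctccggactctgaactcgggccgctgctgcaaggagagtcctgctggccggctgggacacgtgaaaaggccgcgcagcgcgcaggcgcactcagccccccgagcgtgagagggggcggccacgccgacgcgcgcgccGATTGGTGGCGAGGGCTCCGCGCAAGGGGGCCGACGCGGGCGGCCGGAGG
Col4a1 and Col4a2, window of Col4a2, chr8:11312555-11312854, plus strand: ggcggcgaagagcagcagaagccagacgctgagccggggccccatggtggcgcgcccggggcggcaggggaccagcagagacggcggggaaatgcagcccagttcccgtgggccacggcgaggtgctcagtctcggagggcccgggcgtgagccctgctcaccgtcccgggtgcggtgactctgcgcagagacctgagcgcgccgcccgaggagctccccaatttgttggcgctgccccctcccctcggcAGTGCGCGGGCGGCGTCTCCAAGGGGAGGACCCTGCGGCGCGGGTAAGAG

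Only 7 bases separated Phf7, a PHD finger gene, from Bap1, the gene of a nuclear deubiquitinase. Their window was 75% G and C and held 50 CpG dinucleotides. The gap was 60 bases between Atm, the gene of a DNA damage kinase, and Npat, a coactivator of histone genes, and the Atm start used for the window lay 157 bp inside the outer end of the gene. It was 84 bases between Sirt3, a mitochondrial deacetylase gene, and Psmd13, a proteasome subunit gene, and 135 bases between Mrps12 and Sars2, which encode a mitochondrial ribosomal protein and a mitochondrial seryl-tRNA synthetase. The Mrps12 window was the least CpG-rich of the 6, with 16 CpG dinucleotides and 56.3% G and C.

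At each of these pairs 1 peak covered both facing ends. The peak at Phf7 and Bap1 was 2323 bp long with 479 tags and a fold enrichment over the input of 70.2, the highest of all peaks at exactly 2 genes. At Atm and Npat the peak was 3668 bp long, with 626 tags and a fold enrichment of 48.5. It reached 1874 bp into Atm and 1734 bp into Npat. At Sirt3 and Psmd13 it was 2536 bp long with a fold enrichment of 46.2, and at Mrps12 and Sars2 1983 bp with 50.6. Hspd1 and Hspe1, which encode the mitochondrial chaperonin and its cochaperonin, overlapped by 96 bp under a peak of 4103 bp with 698 tags and a fold enrichment of 44.1. Col4a1 and Col4a2, which encode chains of basement membrane collagen, overlapped by 85 bp in the same arrangement. Their peak was 1375 bp long with 90 tags and a fold enrichment of 13.0. The windows printed for these last 2 pairs held 39 and 33 CpG dinucleotides.

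Of 18 gene pairs listed as known neighbours, 12 had a peak at exactly these 2 genes. The pairs were picked by name, so this count is not a share of neighbours in general. All 12 overlapped or lay at most 272 bp apart. Another 6 of the 12 had fold enrichments from 33.9 to 43.8. Among them were Mcm4 and Prkdc, a replication helicase subunit and a DNA repair kinase, 43 bp apart under a peak of 2939 bp with a fold enrichment of 42.7. Ppat and Paics, both of purine synthesis, overlapped by 277 bp under a peak with 37.1, and Hadha and Hadhb, the subunits of a mitochondrial enzyme of fatty acid oxidation, were 272 bp apart under a peak with 43.8. Surf1 and Surf2 had a fold enrichment of 39.3. Brca1, a DNA repair gene, and Nbr1, an autophagy receptor gene, were 151 bp apart under a peak of 3645 bp with 38.6. Tk1, the gene of thymidine kinase, and Afmid overlapped by 585 bp under a peak with 33.9. Gapdh and Ncapd2 shared a peak of 5913 bp, which lay at 3 genes and is above the length limit. The other 5 pairs had no peak in common and lay 1510 to 11188 bp apart, Dlx1 and Dlx2 of the forebrain among them at 9426 bp.

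Shared peaks were longer and held more tags than peaks at 1 gene. A longer peak reaches the windows of 2 genes more easily. Part of the difference in length, and of the tags and fold enrichment that go with it, is therefore built into how the peaks were chosen. Their median length was 2354 bp with quartiles of 1848 and 2899 bp, against 2020 bp with quartiles of 1569 and 2598 bp at 1 gene. They held a median of 392 tags (quartiles 260 and 524), against 301 tags (quartiles 184 and 426). The median fold enrichment was 41.2 (quartiles 33.3 and 47.0) in shared peaks and 37.6 (quartiles 26.8 and 44.8) in 1-gene peaks. A fold enrichment of 30 or more was reached by 82.1% of shared peaks (exact 95% interval 80.3 to 83.8) and by 69.7% of 1-gene peaks (68.7 to 70.7), against 72% of all peaks at coding gene ends. The quartile ranges of both groups overlapped on all 3 measures. Fold enrichment rose with length, and peaks of like length differed less. Its medians were 10.13 in shared and 9.55 in 1-gene peaks under 1000 bp, and 33.99 and 32.55 at 1000 to under 2000 bp. They were 43.1 and 41.23 at 2000 to under 3000 bp, and 45.57 and 44.25 at 3000 to under 4000 bp. At 4000 to under 5000 bp the order turned, with 44.89 and 45.57.

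Most of the surplus of tags went with the greater length. Among peaks of 2000 to under 3000 bp, 885 shared peaks had a median of 419 tags and 3193 1-gene peaks a median of 379 tags. Among peaks under 1000 bp the medians were 36 and 34 tags, and among peaks of 1000 to under 2000 bp 216.5 and 210 tags. Among peaks of 3000 to under 4000 bp they were 610 and 571 tags, and among peaks of 4000 to under 5000 bp 770 and 754 tags. With shared peaks weighted to the lengths of 1-gene peaks, their median was 316 tags, against 301 tags in 1-gene peaks. Tags per kb had a median of 162 in shared peaks and 145 in 1-gene peaks. The caller kept 1 tag per position, which limits the counts of the strongest peaks in both groups.

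Most shared peaks lay at the starts of 2 genes. The strand of both genes was given for 1353 of the 1824 peaks at exactly 2 genes. Of these, 901 peaks lay at the starts of both genes, which is 66.6% (exact 95% interval 64.0 to 69.1). The 2 starts need not face each other, since genes that run in the same direction can both start at 1 peak. Another 428 (31.6%) lay at the start of 1 gene and the 3′ end of its neighbour, and 24 (1.77%) lay at 3′ ends only. In all, 98.2% of the shared peaks with both strands given touched a start, and 97.2% of the 1-gene peaks with a strand did.

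Peaks at 2 starts were the long ones. Their median length was 2560 bp (quartiles 2118 and 3084), against 1981 bp (quartiles 1649 and 2424) for shared peaks at 1 start and 2053 bp (quartiles 1624 and 2618) for 1-gene peaks at the start only. They held a median of 455 tags, against 294 tags for shared peaks at 1 start and 309 tags for 1-gene peaks at the start only. Their fold enrichment had a median of 42.8, against 39.1 and 38.3. Shared peaks at 1 start thus had medians near those of 1-gene peaks, and the surplus of shared peaks over 1-gene peaks lay with the peaks at 2 starts. The 24 peaks at 3′ ends only were short, with medians of 1152 bp, 72 tags and a fold enrichment of 13.4. The 190 1-gene peaks at a 3′ end only had medians of 1085 bp, 70 tags and 13.7.

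**Figure D1:**
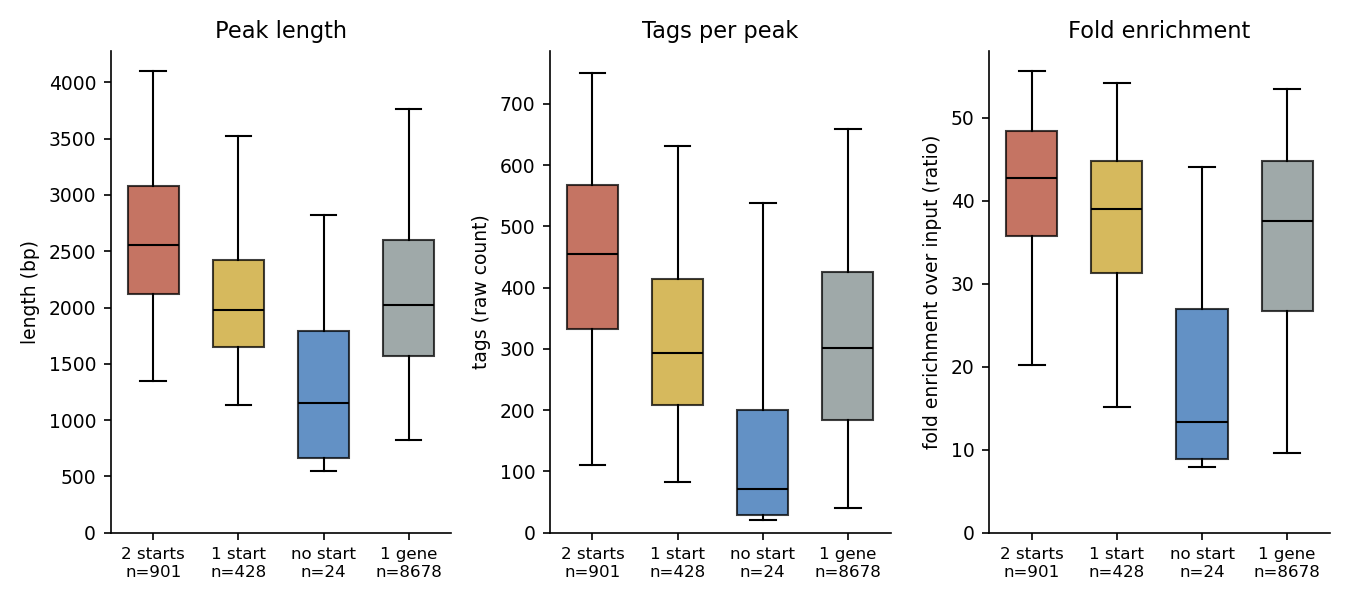
Length in bp, raw tag count and fold enrichment over the input (ratio) of 2-gene peaks at 2 starts, at 1 start and at no start, and of 1-gene peaks. Boxes show quartiles and median, whiskers the 5th to 95th percentiles, and n is the number of peaks. The peaks at 2 starts have the highest medians (2560 bp, 455 tags, 42.8), and those at no start the lowest (1152 bp, 72 tags, 13.4).

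The share of close neighbours with a shared peak differed by orientation. On chromosomes 1 to 19, 2884 pairs of adjacent coding genes lay under 2000 bp apart without overlapping, and 46.5% of them had a shared peak within 1 kb of both facing ends. Of 612 head-to-head pairs, whose starts face each other, 555 had one, which is 90.7% (exact 95% interval 88.1 to 92.9). Of 792 pairs in the same direction 390 had one (49.2%, 45.7 to 52.8), and of 654 tail-to-tail pairs, whose 3′ ends face each other, 48 had one (7.34%, 5.46 to 9.61). No peak of any length lay at either facing end in 5.23% of head-to-head pairs, 37.2% of pairs in the same direction and 89.3% of tail-to-tail pairs. The 3 intervals for a shared peak did not overlap, and gene pairs of 1 library are not replicates. At gaps under 1000 bp a peak over 1 facing end lies within 1 kb of the other, so 1 marked start is enough. Head-to-head pairs have starts at both facing ends, pairs in the same direction at 1 and tail-to-tail pairs at none. Part of this order is therefore built into the rule, and a shared peak need not mean that both starts are marked.

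Distance changed the head-to-head share only beyond 1 kb. It was 94.8% of 401 pairs under 200 bp apart, 94.8% of 116 pairs at 200 to under 500 bp, 90.5% of 42 pairs at 500 to under 1000 bp and 50.9% of 53 pairs at 1000 to under 2000 bp (exact 95% interval of the last 36.8 to 64.9). At 1000 to under 2000 bp 6 of the 53 head-to-head pairs had separate peaks at both facing ends, and no head-to-head pair under 1000 bp apart had. That absence follows from the rule, since under 1000 bp a peak over 1 facing end already counts as shared. The share of pairs in the same direction was 53.5% of 101 pairs under 200 bp, 63.2% of 190 pairs at 500 to under 1000 bp and 35.4% of 356 pairs at 1000 to under 2000 bp. Tail-to-tail pairs lay between 3.87% and 13.0% at every distance. A peak needs to lie only within 1 kb of both ends, so at a wider gap fewer peak positions can count as shared.

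**Figure D2:**
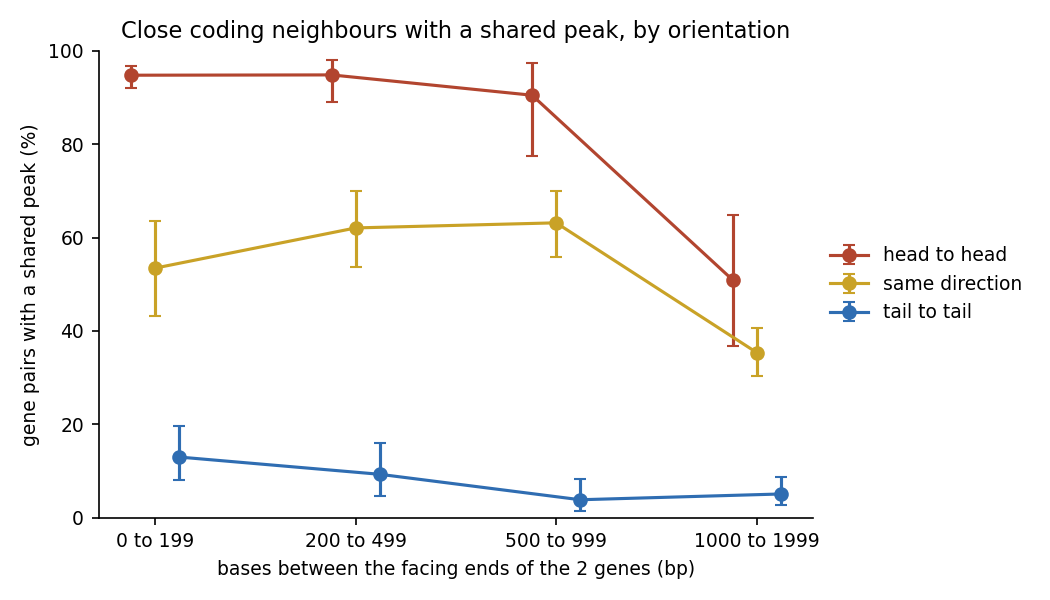
Share of close, non-overlapping coding neighbours with a shared peak (percent) by the bases between their facing ends (bp), for head-to-head, same-direction and tail-to-tail pairs. Points are shares, and bars are exact 95% binomial intervals over gene pairs. Head-to-head pairs lie at 90.5% or above under 1000 bp, and tail-to-tail pairs at or under 13.0% throughout.

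Overlapping gene pairs made up a minority of the shared peaks. Of the 1824 peaks at exactly 2 genes, 545 lay at genes whose spans overlap (29.9%, exact 95% interval 27.8 to 32.0) and 1279 at genes that do not. Peaks at overlapping pairs had a median length of 2426 bp (quartiles 1958 and 2914), against 2302 bp (quartiles 1800 and 2868) at non-overlapping pairs. They held a median of 413 tags (quartiles 278 and 526), against 380 tags (quartiles 253 and 518). The fold enrichments had medians of 42.0 (quartiles 33.3 and 48.3) and 40.8 (quartiles 33.3 and 47.0), and 82.8% of peaks at overlapping pairs and 81.7% at non-overlapping pairs reached 30. These differences were small beside the spread of each class.

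Overlapping pairs were more often pairs of starts. With both strands given, 86.1% of peaks at overlapping pairs lay at the starts of both genes (342 of 397, exact 95% interval 82.4 to 89.4), against 58.5% at non-overlapping pairs (559 of 956, 55.3 to 61.6). Within peaks that touched 2 starts and no 3′ end, the order of the medians was the other way round in length and tags. There the median length was 2520 bp at 314 overlapping pairs and 2599 bp at 509 non-overlapping pairs, the tags 445 and 461, and the fold enrichment 43.4 and 43.1. The quartiles of length, 2093 and 2987 bp for overlapping pairs and 2194 and 3112 bp for non-overlapping pairs, covered each other almost fully. Where the peak lay at 1 start, the medians were 2109 bp and 325 tags at 47 overlapping pairs, and 1948 bp and 285 tags at 381 non-overlapping pairs.

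Most overlaps were short. The span shared by both genes had a median of 369 bp (quartiles 103 and 928, range 1 to 40718 bp), 58.3% of the overlapping pairs shared under 500 bp, and in 7.71% 1 gene lay inside the other. In head-to-head overlapping pairs the shared span had a median of 341.5 bp. In these pairs the median length was 2433 bp at 110 pairs that shared under 200 bp, 2589 bp at 97 pairs that shared 200 to under 500 bp 2594 bp at 41 pairs that shared 1000 to under 2000 bp and 2162 bp at 20 pairs that shared 2000 bp or more. Predicted genes, with symbols of the Gm or Rik kind, took part in 16.1% of overlapping pairs and 4.30% of non-overlapping pairs. The longest shared spans belonged to Gm20498 with Synj2bp (40718 bp), Prnp, the prion protein gene, with Prn (28509 bp), Prc1, a gene of cytokinesis, with Rccd1 (21669 bp), and Dclre1c, a DNA repair nuclease gene, with Suv39h2, a histone methyltransferase gene (18397 bp). The peaks at these 4 pairs had fold enrichments of 42.1, 39.8, 43.5 and 41.4. In the first 2 pairs the genes run in the same direction and both start at the peak, so their starts do not face each other.

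Non-overlapping genes under a shared peak lay close together, which is built into how the peaks were chosen. The gap between their facing ends had a median of 268 bp (quartiles 87 and 786.5) and reached 2917 bp, and 63.0% of the gaps were under 500 bp. Head-to-head pairs were the closest, with a median of 110 bp (quartiles 53 and 265, n = 547), against 694 bp in the same direction (quartiles 342 and 1180, n = 381) and 481.5 bp tail to tail (n = 28). Over all 1279 peaks, the Spearman rho of gap and length was -0.20. The median length was 2512 bp under 200 bp, 2206 bp at 200 to under 500 bp, 1970 bp at 500 to under 1000 bp, 2060 bp at 1000 to under 2000 bp and 2698 bp in 18 peaks at 2000 bp or more, so it was lowest at middle gaps. Within head-to-head pairs rho was 0.01. There the median length was 2571 bp under 200 bp, 2706 bp at 200 to under 500 bp, 2683 bp at 500 to under 1000 bp and 2019 bp in 30 peaks at 1000 to under 2000 bp, and those 30 peaks also had fewer tags, with a median of 270.5 against 458 at 500 to under 1000 bp. Within pairs in the same direction rho was 0.23. The points share 1 library, and the same rule that admits a peak ties its length to the gap, since a wide gap can be bridged only by a long peak or by one that lies between the genes.

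**Figure D3:**
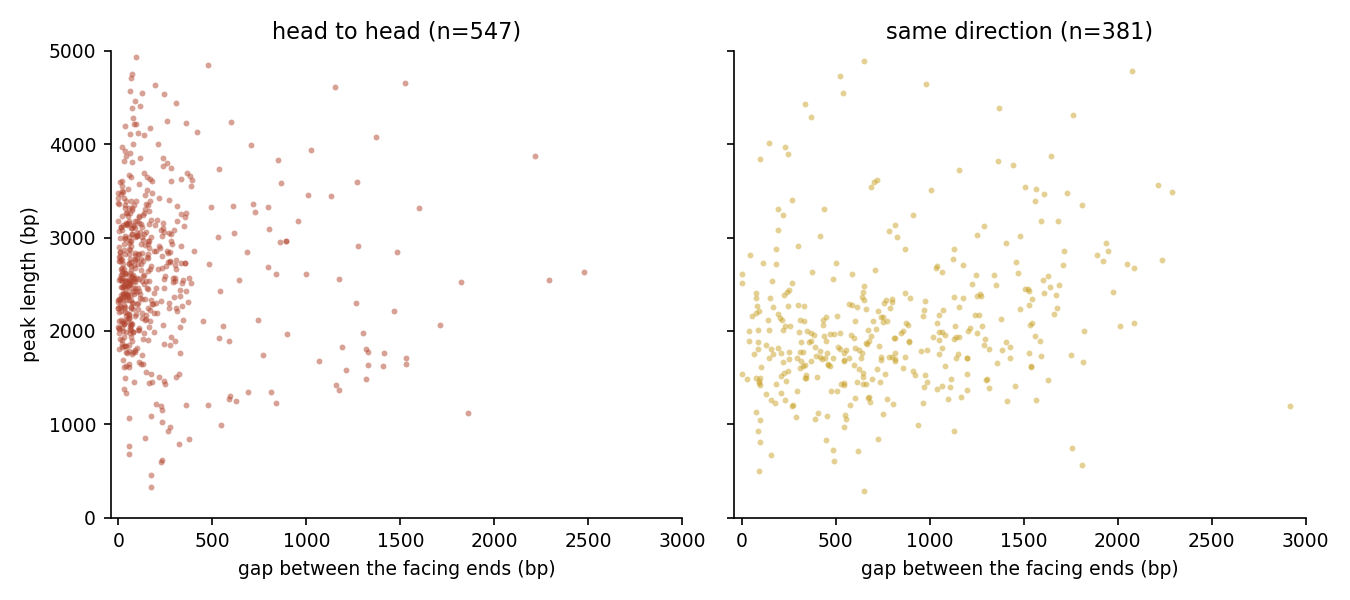
Peak length (bp) against the gap between the facing gene ends (bp) for non-overlapping 2-gene peaks, 547 head to head and 381 in the same direction. Each point is a peak. Head-to-head pairs crowd at small gaps (median 110 bp) with long peaks, and pairs in the same direction spread to wider gaps (median 694 bp) with shorter peaks.

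At head-to-head pairs the mark extended about 1 kb into each gene. The peak lay over both facing ends in 491 of 547 non-overlapping head-to-head pairs (89.8%). In these it reached a median of 1233 bp (quartiles 1001 and 1533) into each gene, with medians of 1453 bp on the longer side and 1048 bp on the shorter side. The longer reach was at most 2 times the shorter in 82.5% of pairs. In 5878 1-gene peaks over the start, the reach was 1386 bp (quartiles 1082 and 1831) into the gene and 656 bp (quartiles 445 and 892) out of it. The shorter side of head-to-head pairs thus had a higher median than the outward side of 1-gene peaks. The longer side is picked by its size. Over both sides the median of 1233 bp was below the 1386 bp of the inward side of 1-gene peaks.

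The summit of the head-to-head peaks lay inside a gene in 96.7% (475 of 491), at a median of 260 bp from its end. It lay in the gene with the longer reach in 71.4% of these. The gaps were short, with a median of 95 bp, so few summits could fall between the genes. Among 27 of these pairs 500 to under 1000 bp apart, 8 had the summit in the gap. In 1-gene peaks over the start the summit lay inside the gene in 91.4%. At 369 non-overlapping pairs in the same direction with 1 start, the peak lay over the start in 94.6% and over the 3′ end of the neighbour in 41.2%. There the summit fell inside the gene that starts in 89.2% and inside the gene that ends in 2.17%.

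**Figure D4:**
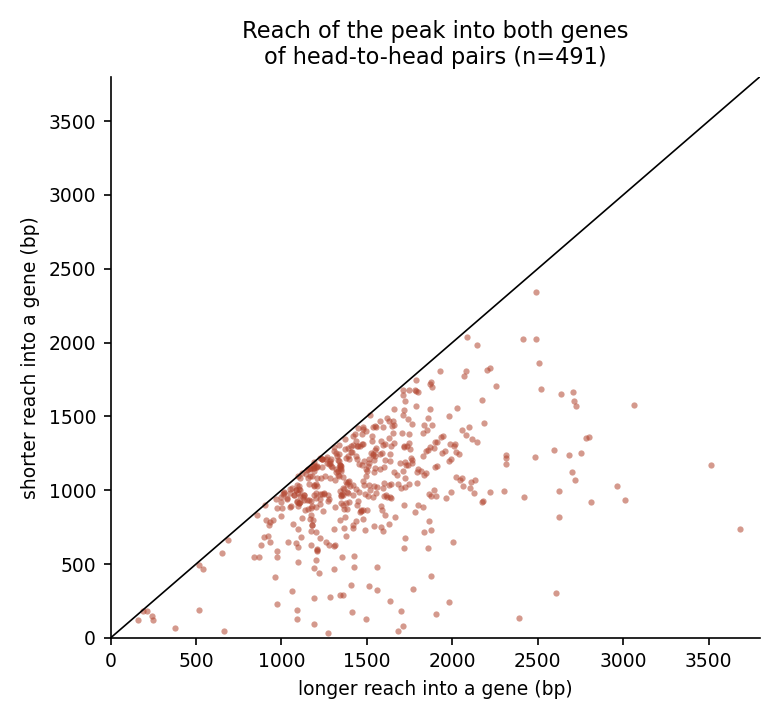
Reach of the peak (bp) into the gene with the longer reach, on the horizontal axis, and into its partner, on the vertical axis, for 491 head-to-head, non-overlapping pairs with the peak over both ends. Each point is a pair, and the line marks equal reach. The longer reach is at most 2 times the shorter in 82.5% of pairs, with medians of 1453 bp and 1048 bp.

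The highest fold enrichments of shared peaks lay between 62.9 and 70.2. Among non-overlapping pairs, Phf7 with Bap1 was followed by Aamdc with Rsf1, the gene of a chromatin remodelling subunit (fold enrichment 68.7, 312 bp apart), and by Tmed7 with Eif1a, the gene of a translation initiation factor (67.99, 168 bp). Next were Tada3 with Arpc4, which encode subunits of a histone acetyltransferase complex and of the actin-nucleating Arp2/3 complex (67.3, 274 bp), and Slbp with Tmem129 (65.8, 641 bp). Slbp encodes the protein that binds the stem-loop of histone mRNAs. The last pair runs in the same direction, and its peak ended 318 bp short of Tmem129. Among overlapping pairs the highest fold enrichments were at Psenen, a gamma-secretase gene, with U2af1l4 (67.3), Fam210a with Rnmt, an mRNA cap methyltransferase gene (66.1), Gm16286 with Txnl4a (65.1), Odr4 with Tpr, a nuclear pore gene (63.7), and Tmem63b with Mrpl14, a mitochondrial ribosomal protein gene (62.9).

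Tag number ranked other pairs first. Nabp2, the gene of a single-stranded DNA-binding protein, and Rnf41, a ubiquitin ligase gene, had the most tags of the non-overlapping pairs, 1163 over 4709 bp, at a fold enrichment of 27.6. Zc3h10 with Rpl41, a ribosomal protein gene, had 1003 tags, and Tmem69 with Gpbp1l1 had 985. The first 2 of these peaks lay near each other, between chr10:128408485 and chr10:128549828. They held 247 and 261 tags per kb, against a median of 160 at non-overlapping pairs. Whether tag density was raised over that region was not tested. Among overlapping pairs Ewsr1, an RNA-binding protein gene, with Rhbdd3 had 1013 tags, Brd2, a bromodomain gene, with H2-DMa 993, and Fbxl12 with Ubl5 950.

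Pairs with the smallest gap differed widely in fold enrichment. A gap of 0 bp was found at 6 of the 1279 peaks. Capza1, an actin capping gene, with St7l had a fold enrichment of 59.3 at such a gap, Ears2, a mitochondrial tRNA synthetase gene, with Ubfd1 51.4, and Tcta with Rhoa, the gene of a small GTPase, 46.0. Dcst2 and Zbtb7b met tail to tail at a gap of 0 bp, under a peak of 883 bp with 46 tags and a fold enrichment of 13.0. The widest gaps were at Ajm1 with Rabl6 (2917 bp, fold enrichment 26.0) and Plxdc1 with Arl5c (2905 bp, 39.4). The Ajm1 and Rabl6 peak covered neither facing end. The lowest fold enrichments were at Ftl1, the ferritin light chain gene, with Bax (4.77, 22 tags), Ecm1 with Tars2 (5.31, 29 tags) and Mapk3, a gene of the ERK kinases, with Gdpd3 (6.37, 28 tags) among non-overlapping pairs. Among overlapping pairs they were at Rdh5 with Bloc1s1 (4.43, 49 tags), Zbtb46 with Abhd16b (7.16, 38 tags) and Cfap221 with Sctr (7.23, 31 tags).

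The 89 peaks at 3 or more genes had medians of 2554 bp, 461 tags and a fold enrichment of 40.7. The peak at 25 genes was weak, with 56 tags over 1250 bp and a fold enrichment of 5.42. It lay at the end that the gamma protocadherin genes, which encode neuronal adhesion proteins, have in common in the gene table, beside an end of Diaph1. A peak of 3151 bp with 637 tags lay at Gm20517, Usp49, Tomm6, Frs3 and Prickle4. Of the 4 peaks at 4 genes, the one at the histone genes H2ac8, H2bc8, H2bc7 and H2ac7 had the fewest tags, 294 over 2371 bp, and a fold enrichment of 24.6, against 37.6 to 50.8 at the other 3.

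Shared peaks were unevenly spread over the genome. They made up 26.8% of coding-end peaks on chromosome 17 (exact 95% interval 23.0 to 30.8) and 25.5% on chromosome 7, against 12.1% on chromosome 6 and 8.77% on chromosome 18 (5.76 to 12.7). The median fold enrichment of the shared peaks ranged from 37.6 on chromosome 13 to 42.7 on chromosome 2. Shared peaks lay at an end of a long non-coding RNA gene as well in 6.06% (exact 95% interval 5.04 to 7.23), against 16.0% of 1-gene peaks (15.2 to 16.7). The 3630 genes at shared peaks had a median span of 15070 bp, against 28567 bp in 8025 genes at 1-gene peaks only. At the length limit, the longest shared peak inside it, at Gm38457 and Klf3, was 4997 bp long with a fold enrichment of 51.4, and the shortest outside it, at Dnajb4 and Fubp1, was 5001 bp long with 44.1.

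Genes of mitochondria, DNA repair, protein folding and tRNA charging lay at shared peaks more often than coding genes in general. Of all 20661 coding genes, 17.6% lay at a shared peak, 38.8% at 1-gene peaks only and 43.6% at no such peak. Among mitochondrial ribosomal protein genes 39 of 79 lay at a shared peak (49.4%, exact 95% interval 37.9 to 60.9), among oxidative phosphorylation genes 38 of 84 (45.2%, 34.3 to 56.5), among genes of DNA replication and repair 47 of 105 (44.8%, 35.0 to 54.8) and among chaperone genes 18 of 36 (50%, 32.9 to 67.1). The count was 16 of 37 for aminoacyl-tRNA synthetase genes (43.2%, 27.1 to 60.5). It was 28 of 83 for cytosolic ribosomal protein genes (33.7%, 23.7 to 44.9) and 12 of 39 for proteasome genes (30.8%, 17.0 to 47.6, an interval that includes 17.6%). These lists were nearly all marked: 2.70% to 10.7% of their genes were at no such peak. Of the marked coding genes 31.1% lay at a shared peak. Among marked genes the share was 51.4% for chaperones, 51.3% for mitochondrial ribosomal proteins, 50.7% for oxidative phosphorylation and 47% for replication and repair. It was 44.4% of the 36 marked tRNA synthetase genes. For cytosolic ribosomal proteins (35%) and the proteasome (33.3%) it lay near the 31.1% of all marked genes. The shares among marked genes are given without intervals.

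The partner was seldom of the same list. Of 40 shared peaks at mitochondrial ribosomal protein genes 1 lay at a pair of them, Mrpl46 and Mrps11 (fold enrichment 47.7), and of 40 shared peaks at oxidative phosphorylation genes none did. Among the strongest for oxidative phosphorylation was the peak at Ndufa7, a complex I gene, with Kank3 and Rps28 (60.8). For replication and repair they were at Fen1, a flap endonuclease gene, with Tmem258 (61.5) and Mre11a, a gene of break repair, with Ankrd49 (57.1). For chaperones they were at Hspa5, the gene of the endoplasmic reticulum chaperone BiP, with Rabepk (54.2) and Cct6a with Psph (52.1). Among the strongest for cytosolic ribosomal protein genes was Rps27a with Clhc1 (61.5). The mitochondrial ribosomal list was led by Tmem63b with Mrpl14, given above, and Mrps18b with Ppp1r10 (59.3). The leading pairs of the tRNA synthetases and the proteasome were Qars with Qrich1 (59.3), Rars2 with Orc3 (51.4), Psmb1 with Tbp (51.4) and Psma7 with Ss18l1 (50.6).

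Clustered histone genes, which lie side by side in the genome, had the largest share, 41 of 67 (61.2%, exact 95% interval 48.5 to 72.9). Among the 57 marked histone genes the share was 71.9%, against 31.1% of all marked coding genes. Of the 34 shared peaks at clustered histone genes 32 lay at 2 or more of them. The strongest was at H2bc6 and H1f4, with 384 tags and a fold enrichment of 43.7, followed by H2bc9 and H3c7 with 36.2. The lowest fold enrichment of the 32 was 8.68, at H2bc13 and H2ac13 with 30 tags. The fewest tags were 20, in a peak at H2ac12 and H2bc12 and in a peak at H2bc7 and H2ac7.

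Regulators of neural stem and progenitor cells were almost absent from the shared peaks. Of 53 such genes 1 lay at a shared peak, 1.89% (exact 95% interval 0.0478 to 10.1), against 17.6% of coding genes. It was Hey1, a Notch target gene, which overlapped LOC115489673 by 115 bp under a peak of 4470 bp with 674 tags and a fold enrichment of 46.3. A further 26 lay at 1-gene peaks only. Among the 27 at a shared or 1-gene peak, the share at a shared peak was 3.70%, against 31.1% of all marked coding genes. Of the 26 at no such peak, 22 lay at an end under a peak of 5000 bp or more, which the length limit leaves out. These regulators also serve as markers of the labelled cell type, and in these 3 classes a peak lay at an end of 1, 26 and 22 of them. Counting peaks of any length, the number at a shared peak was still 1. Zinc finger genes named Zfp lay at a shared peak in 54 of 386 (14.0%, 10.7 to 17.9), against 17.6% of coding genes. Among the 309 marked Zfp genes the share was 17.5%, below the 31.1% of all marked coding genes. Of the 46 shared peaks at Zfp genes 9 held a pair of them. The highest fold enrichments of the 46 were at Zfp277 with Dock4 (55.6) and Zfp691 with Ermap (54.2). None of 1104 olfactory receptor genes lay at a shared or 1-gene peak, which leaves a share of up to 0.334%.

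**Figure D5:**
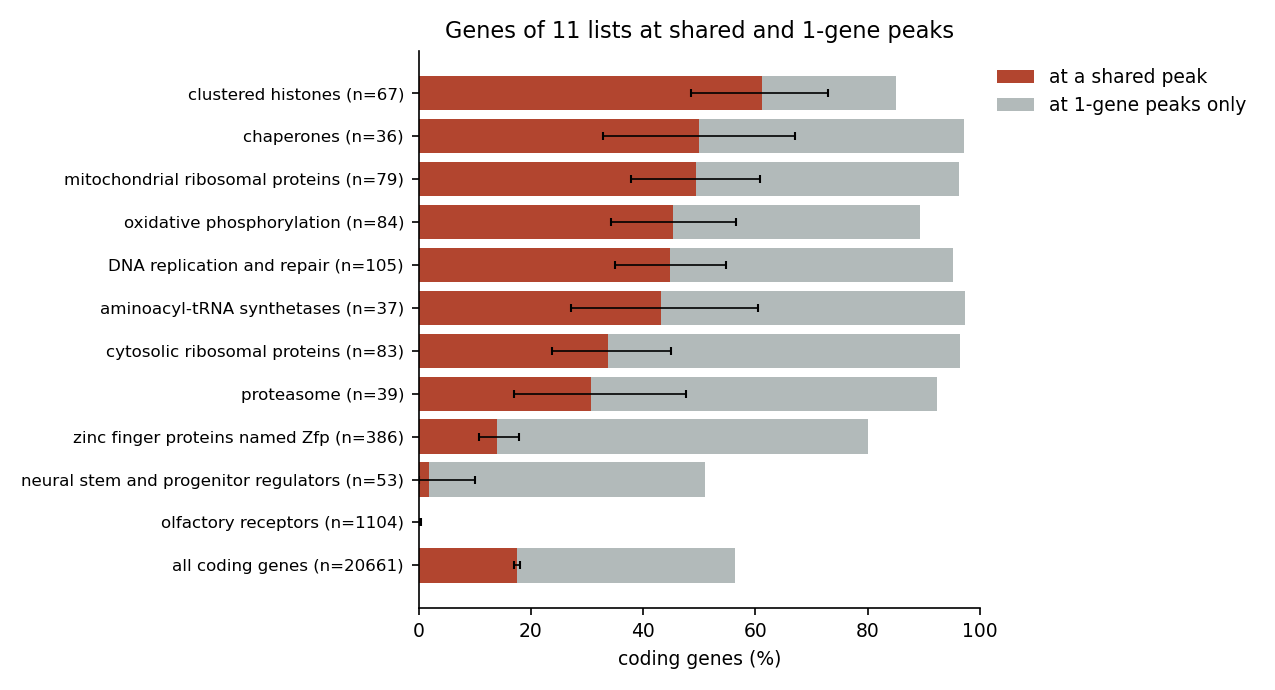
Percent of the coding genes of 11 lists, and of all coding genes in the bottom row, that lay at a shared peak (red) or at 1-gene peaks only (grey). Bars on the red part are exact 95% binomial intervals over genes, and n is the number of genes on chromosomes 1 to 19. Clustered histones reach 61.2%, and neural stem and progenitor regulators 1.89%.

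The promoters of paired starts were CpG-rich, to about the degree of other marked starts. A RefSeq window was matched for 3000 of the 3630 genes at shared peaks. In genes at 2 starts the windows of non-overlapping pairs had a median of 62% G and C and 23 CpG dinucleotides (quartiles 17 and 30), and those of overlapping pairs 62.7% and 23 (quartiles 16 and 31). Genes with a 1-gene peak at the start had 62% and 22 (quartiles 15 and 30), and genes at no such peak 48.7% and 3 (quartiles 1 and 8). The ratio of observed to expected CpG had a median of 0.84 in non-overlapping pairs of starts, against 0.78 in genes with a 1-gene peak at the start.

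Short motifs were counted on both strands of the same windows. The ETS motif CCGGAAG was in 28.4% of 1002 windows of non-overlapping pairs of starts (exact 95% interval 25.7 to 31.3) and 24.9% of 618 windows of overlapping pairs, against 16.1% of 6265 windows of genes with a 1-gene peak at the start (15.2 to 17.1) and 12.3% of all 16456 windows. Facing windows share bases. With 1 window a pair the ETS share was 27.5% of 501 windows of non-overlapping pairs (23.7 to 31.7). In the start genes of shared peaks at 1 start it was 26.7% of 427 windows. The YY1 motif AAGATGGCG was in 5.89% of the windows of non-overlapping pairs of starts, 2.76% of those with a 1-gene peak at the start and 1.92% of all windows, and in 3.07% of the windows of overlapping pairs. The NRF1 motif GCATGCGC was in 7.29%, 5.83% and 3.65% of these windows and in 5.02% of those of overlapping pairs, which is below the share with a 1-gene peak at the start.

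The other 5 motifs were counted in the same way. The Sp1 motif GGGCGG was in 67.9% of windows of non-overlapping pairs of starts, 69.4% with a 1-gene peak at the start and 47.3% of all windows. The CCAAT box CCAAT was in 43.0%, 38.3% and 39.1%, and in 33.0% of windows of overlapping pairs. The TATA box TATAAA was in 4.49%, 6.53% and 13.5%, the E-box CACGTG in 10.6%, 10.2% and 7.97%, and the cAMP response element TGACGTCA in 3.49%, 3.58% and 2.40%. Of the windows printed above, those of Atm, Sirt3 and Mrps12 held the ETS motif, and those of Phf7, Atm, Mrps12, Hspd1 and Col4a2 the Sp1 motif. A match describes the letters of a window and is not a measured binding site.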

How the data were processed

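The members and gene lists were chosen with earlier results of these data known. The submitters' processing notes name mm10 as the build, with the aligner not given in the sources used here. MACS 1.4.2 is the caller per the file headers: peaks were called on 1 H3K4me3 library against 1 input library with a p cutoff of 1e-05, and 1 tag was kept at each position. MACS2 2.1.0 stands in the submitters' processing notes. The deposited file gives for each peak the raw tag count, a score of 10 times the -log10 p-value, the ratio to the input (fold enrichment) and the FDR in percent, which was not used. These are the authors' own values per peak. The weakest listed peak held 13 tags, and genes below what the caller could list count here as having no peak.

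Peaks were joined to coding genes of a RefSeq table of GRCm38.p6 by the outer ends of each gene, with windows of 1000 bp and an overlap of at least 1 bp. Strand came from the RefSeq promoter table, which matched 16456 of 20661 genes by gene ID. Adjacent genes were called close neighbours when under 2000 bp apart. Intervals are at 95%. Those of shares are exact (Clopper-Pearson), and those of medians come from the ranked values. Those of differences of medians combine the limits of both medians and are approximate. Tags without molecular identifiers are not independent molecules. Starts inside a gene are missed. Assignments, orientations and gaps were checked on simulated data. Named genes were 18 listed pairs, the extremes of fold enrichment, tags, gap and shared span in each class, the peaks at the most genes, and the 2 strongest shared peaks of each list, with other names marked as chosen later. A few of the genes this rule names are not reported here. Lists defined by symbol pattern were matched by symbol, and histone genes also by older symbols. Alternatives were other windows, overlaps, p thresholds, length limits, gene sets and chromosomes. Python 3.11.15, pandas 2.3.3, NumPy 2.4.6 and SciPy 1.17.1 were used.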

Additional observations from a re-analysis of the deposited data

Results flagged for a closer look

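Shared peaks were also present in peaks that the comparisons above did not use. On chromosomes 1 to 19, 48 peaks of 5000 bp or more lay at ends of 2 or more coding genes, which is 18.5% of the 259 coding-end peaks of that length (exact 95% interval 14.0 to 23.8), against 18.1% of the shorter ones. They had medians of 5802 bp, 1005 tags and a fold enrichment of 48.3. On X and Y, 44 peaks under 5000 bp were shared, which is 11.9% of 370 coding-end peaks (8.78 to 15.6). Their median fold enrichment was 24.6 and their median length 2035 bp, against 41.2 and 2354 bp on chromosomes 1 to 19. Tags per kb had a median of 91.6 on X and Y, against 162 on chromosomes 1 to 19. The cause was not tested.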

How the results depend on the processing

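The 14 main values were computed again under 11 settings, which gave 119 values, 81 of them inside the 95% interval of the main value and none with another sign. The 38 outside followed mostly from what counts as lying at an end. With windows of 500 bp, shared peaks were 16.3% of coding-end peaks with medians of 2426 bp and 414 tags, 32.1% of pairs overlapped, the median gap was 201 bp, 72.4% of peaks lay at 2 starts, and 39.6% of close neighbours shared a peak (head to head 87.9%, same direction 37.6%, tail to tail 3.82%). With windows of 2500 bp these were 23.5%, 2214 bp, 349 tags, 24.7%, 643.5 bp, 57.3% and 55.8% (94.0%, 64.0%, 17.3%), and the median fold enrichment was 39.8. With an overlap of at least 200 bp, 17.3% of peaks were shared, the gap was 237 bp, 69.1% lay at 2 starts, and 43.9% of close neighbours and 43.9% of those in the same direction shared a peak. With the summit in the window, 14.1% of peaks were shared with a median of 409.5 tags, 33.5% of pairs overlapped, the gap was 142 bp, 78.0% lay at 2 starts, and 31.3% of close neighbours shared a peak (80.1%, 23.9%, 1.53%). Without predicted genes 17.0% of peaks were shared and 27.0% of pairs overlapped. Weighting shared peaks to the lengths of 1-gene peaks gave a median of 316 tags. In the 8 settings that bear on close neighbours, head-to-head neighbours shared a peak most often and tail-to-tail neighbours least often. The setting with 1 peak per gene pair was chosen after seeing the data. Overlapping pairs exceeded non-overlapping pairs in median length by 124 bp, in tags by 33 and in fold enrichment by 1.12, with a 95% interval of the last, from the spread over peaks of this library, of -0.49 to 1.99, which includes 0. With windows of 500 bp these were 66 bp, 13 tags and 0.57, with intervals of length and tags that include 0, and with windows of 2500 bp 208.5 bp, 56 tags and 0.97. With the summit in the window they were 76.5 bp, 19 tags and 0.72, again with intervals of length and tags that include 0. No paired analysis was possible because the labels give 1 library of each kind and no replicate numbers. Depth limits what is listed: weak sites under the p cutoff of 1e-05 are not seen.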
